A study of Mus musculus with 2 samples.

Results

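The endothelial cells that line the blood vessels of denervated mouse hind limb muscle are described here from 1 single-cell library of cells sorted for a green fluorescent protein (GFP) reporter. Members were chosen by their own counts: a barcode was taken when it held at least 1500 unique molecular identifiers (UMIs, each counted as 1 RNA molecule), under 10% of them mitochondrial, and at least 5 UMIs spread over at least 3 of the 5 genes Cdh5, Flt1, Ptprb, Gpihbp1 and Adgrl4. Of the 36400 barcodes in the library, 25372 met the depth and mitochondrial limits, and 163 of these met the gene gate, which is 0.642% (exact binomial 95% interval 0.548 to 0.749%). Since the library was sorted on the reporter, this is a share of the sorted barcodes and not of the muscle.

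The study sequenced hind limb muscle (tibialis anterior and gastrocnemius) of S100GFPtg mice, which carry GFP driven by the S100B promoter as a label for Schwann cells, harvested 7 days after a crush of the sciatic nerve. The mice were males, carried no Sod1 deletion in this group, and were 2 months old by the series description, although the methods give another age range for crush experiments. Viable cells were sorted into a GFP+ and a GFP- fraction, each sequenced as 1 library with 3' tags, and only the GFP+ counts were analysed here. The series description speaks of 1 crushed animal and the methods of pooled animals, so there is no replicate, and all intervals below are 95% intervals that cover counting error only.

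Endothelial cells form the inner wall of every vessel and control what passes between blood and tissue. They receive vascular endothelial growth factor (VEGF) and angiopoietin through receptor tyrosine kinases, and Notch and BMP signals set apart arteries, capillaries and veins. In skeletal muscle the capillaries feed the fibres with fatty acids, which they take from blood lipoproteins and carry across with fatty acid binding proteins.

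Members held a median of 4107 UMIs (1517 to 77980) and 1889 genes, compared with 2852 UMIs and 1436 genes in the other eligible barcodes. Their depth was uneven. The 71 members with at least 5000 UMIs supplied 78.5% of the 1206640 member UMIs, and the deepest member alone supplied 6.46%. Of the library's barcodes 372 also occurred in the GFP- library, and none of these was a member.

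The gate genes are given only as a description, because they chose the members. All 5 were detected in 87 members, 4 in 42 and 3 in 34, with a median of 22 gate UMIs per member. Flt1, a VEGF receptor, was at 1348 CPM (1284 to 1416), where CPM are counts per 1000000 UMIs of a class. Gpihbp1, which holds lipoprotein lipase on the capillary wall, was at 787 CPM (738 to 839). Cdh5, the cadherin of endothelial junctions, was at 719 CPM (671 to 768). Members held 71.3% of the 6844 gate UMIs of all eligible barcodes. The 37 members just inside the threshold, with 5 or 6 gate UMIs, had 2834 CPM of Fabp4 and 350.4 CPM of Pecam1, and the 161 barcodes just outside, with 3 or 4 gate UMIs or with more over too few genes, had 1060.0 and 117 CPM.

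The label was set beside 18 endothelial genes, of which only Fabp4 was given with the rule and none belongs to the gate. Of these, 17 of 18 genes were at least 4-fold higher in members than in the other eligible barcodes, compared with 6.12% of all 9053 genes tested, and none of them was 4-fold lower, compared with 2.44%. Their median log2 ratio was 6.72, beside 0.15 over all genes tested. A gene was tested when the average of its CPM in members and in the other barcodes was at least 10, so a gene rare elsewhere could pass only by being high in members. This count and those of the gene lists below are therefore descriptions. Fabp4 was at 13006 CPM (12804 to 13212) in members and 159.8 CPM in the other barcodes. Pecam1, an adhesion molecule shared with leukocytes, was at 696 CPM (649.9 to 745) and 52.1 CPM, and Egfl7, a secreted endothelial factor, at 523 CPM (483 to 565) and 4.95 CPM. The exception was Cd34, a surface sialomucin of endothelium and of fibroblast-like cells, at 273 CPM in members, 120.0 CPM in the other barcodes and 471 CPM in barcodes that passed a fibroblast gate. After each member was thinned to 1500 UMIs, 93.3% (88.2 to 96.6%) held a Fabp4 UMI and 58.9% (50.9 to 66.5%) a Pecam1 UMI, or 95.1% and 83.4% without thinning. In macrophage gate barcodes, at a median of 6108 UMIs, the thinned shares were 9.78% and 7.47%, and the unthinned ones 16.4% and 18.9%.

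Many members also carried RNA of other cell types. Gates of the same form for mural cells (smooth muscle cells and pericytes), fibroblasts and macrophages were passed by 22, 4 and 26 members, or 49 members in all. The 16 myeloid genes summed to 7747 CPM in members, 2303 CPM in the 114 members that passed the endothelial gate alone and 29832 CPM in barcodes of the macrophage gate alone. The 14 mural genes summed to 2769, 881 and, in the mural gate, 11199 CPM, and the 14 fibroblast genes to 2282, 919 and, in the fibroblast gate, 50074 CPM. Deep and shallow members differed in these lists too. The myeloid list summed to 8059 CPM in the 71 members of at least 5000 UMIs and 6608 CPM in the other 92 and the mural list to 3211 and 1155 CPM. The muscle fibre list summed to 88.7 and 1822 CPM, and the latter was 612 CPM without 1 shallow member. The endothelial identity list summed to 16602 and 20968 CPM. One member held 50.8% of the fibroblast UMIs, and without it the list summed to 1160.3 CPM in members. In the mural list 10 of 14 genes (12 tested) were at least 4-fold higher in members than in the other barcodes. The part that doublets or free RNA play in these levels was not tested.

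Clustering of the members without the gate genes gave 6 clusters, which separated members by the other RNA they carried. In clusters 1 and 3, with 54 and 23 cells, no myeloid, fibroblast or mural list had 3 counting markers, where a marker counted if at least 10% of the cluster held it at 1.5 times the level of the other members or more. In the 43 cells of cluster 2 all 16 myeloid genes counted, and 23 of these cells passed another gate. In the 17 cells of cluster 4, at a median of 13411 UMIs, all 14 mural genes counted and 15 cells passed another gate. In the 12 cells of cluster 6 all 14 fibroblast genes counted, with 8 of the myeloid genes, which summed to 12941 CPM there. The 14 cells of cluster 5 were all under 5000 UMIs, with 4 counting genes of the venous gate described below, 6 other venous, 4 myeloid and 2 mural genes. The myeloid list summed to 7276 CPM and the mural list to 4348 CPM in cluster 5. None of the clusters was given a cell type name, because the 10 leading genes of most held genes of other cell types, such as 5 muscle fibre genes in cluster 1 and 4 lymphatic genes in cluster 3. Of the 77 members of clusters 1 and 3, 3 passed another gate, and in these 77 the myeloid list summed to 343 CPM, the fibroblast list to 226 CPM and the mural list to 731 CPM. The values of these 77 members, a set added after the data were seen, are given below beside those of all 163.

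**Figure D1:**
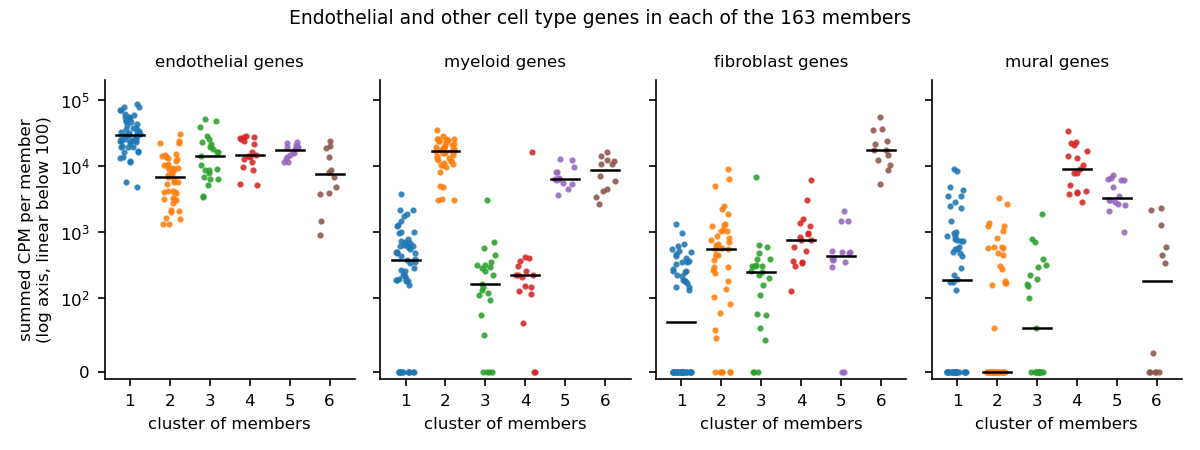
Summed CPM of endothelial, myeloid, fibroblast and mural genes in each of the 163 members, by cluster, on an axis that is logarithmic above 100 CPM and linear below. Each point is a member and each line a cluster median. Summed over a cluster, myeloid genes are highest in cluster 2 and also high in clusters 6 and 5, mural genes are highest in cluster 4 and next highest in cluster 5, and fibroblast genes are highest in cluster 6. The endothelial genes summed to 36071, 8539, 17568, 19114, 17037 and 4284 CPM in clusters 1 to 6 in order. In clusters 2 and 6 these sums were below the myeloid sums, and in cluster 6 also below the fibroblast sum.

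The 15 genes with the highest ratios, among those found in at least 25% of members, held members of the surface, factor and signalling machinery of endothelium. Myct1, an endothelial gene whose log2 ratio to the other barcodes was 9.41 (8.96 to 9.92), was at 202 CPM (178 to 229) in members and 0.294 CPM elsewhere. Sox17 and Sox18, SRY-box factors of vessel development, were at 227 CPM (201 to 256) and 183 CPM (159.8 to 209), with log2 ratios of 9.12 and 8.66. Robo4, an endothelial guidance receptor, and Tie1, an orphan receptor of the angiopoietin pathway, had log2 ratios of 8.83 (8.17 to 9.59) and 8.75 (8.27 to 9.27). They were at 69.6 CPM (55.5 to 86.2) and 128 CPM (108 to 149). These were followed by C1qtnf9, an adiponectin paralogue, Cyyr1, the sialomucin genes Podxl and Emcn, Tmem252, Grrp1, the adhesion receptor gene Adgrf5, Timp4, an inhibitor of metalloproteinases, Depp1, a target of FOXO factors, and Arhgef15. Their log2 ratios ran from 8.48 for C1qtnf9 to 7.74 for Arhgef15. In the 77 members of clusters 1 and 3 each of the 15 was higher than in all members, for example Cyyr1 at 852 against 573 CPM and Emcn at 659 against 390.3 CPM.

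**Figure D2:**
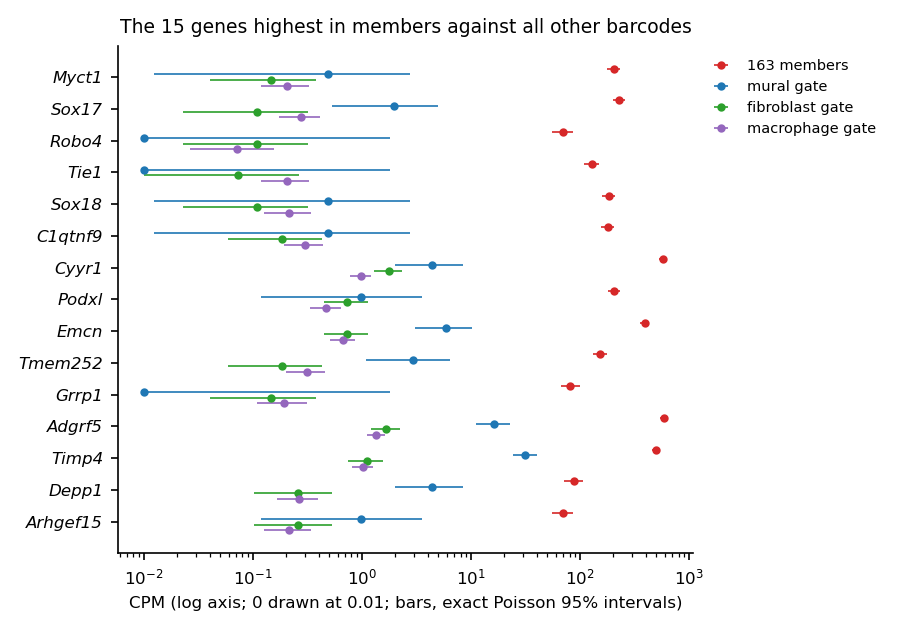
CPM of the 15 genes with the highest ratio, on a log axis, in members and in barcodes of the mural, fibroblast and macrophage gates alone, with exact Poisson 95% intervals and a level of 0 drawn at 0.01. For every gene the member value lies to the right of the 3 gates.

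Promoters of these genes are shown because ETS factors, among them Erg, Fli1 and Ets1, bind the core GGAA and are known regulators of endothelial genes. RefSeq promoter windows on GRCm38.p6, from 250 bases before to 50 bases after a start, were found for 11 of the 15 genes, in 12 windows. The windows of the first 3 genes in order of ratio that had one are printed 5' to 3' in the direction of the gene, with GGAA and its reverse complement TTCC in capitals. They lie at chr10:5593478-5593777, plus strand (Myct1), chr9:37401722-37402021, plus strand (Robo4) and chr4:118489800-118490099, minus strand (Tie1).
Myct1: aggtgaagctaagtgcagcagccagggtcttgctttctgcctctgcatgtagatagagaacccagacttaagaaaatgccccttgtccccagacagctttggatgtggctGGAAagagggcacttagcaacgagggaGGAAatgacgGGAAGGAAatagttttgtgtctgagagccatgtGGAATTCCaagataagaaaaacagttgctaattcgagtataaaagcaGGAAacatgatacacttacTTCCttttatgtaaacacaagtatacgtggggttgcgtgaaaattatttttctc
Robo4: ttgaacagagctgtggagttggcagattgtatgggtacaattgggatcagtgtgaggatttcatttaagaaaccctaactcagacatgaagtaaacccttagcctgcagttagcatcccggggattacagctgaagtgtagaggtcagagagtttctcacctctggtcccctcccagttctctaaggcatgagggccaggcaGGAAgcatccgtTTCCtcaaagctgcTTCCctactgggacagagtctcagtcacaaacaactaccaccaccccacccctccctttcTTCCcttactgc
Tie1: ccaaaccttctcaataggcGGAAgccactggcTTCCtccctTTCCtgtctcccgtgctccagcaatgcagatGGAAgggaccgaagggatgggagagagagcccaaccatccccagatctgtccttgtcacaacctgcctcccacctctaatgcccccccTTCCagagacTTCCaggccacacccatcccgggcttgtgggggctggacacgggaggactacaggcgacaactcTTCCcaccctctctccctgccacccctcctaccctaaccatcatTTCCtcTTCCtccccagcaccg

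On both strands together GGAA occurred 8 times in the Myct1 window, 4 times in that of Robo4 and 9 times in that of Tie1. The 12 windows held 4 to 9 each, with a median of 5.5, and the median of all 32851 windows was 3. The core is so short that 96.0% of all windows held it at least once, and 3.72% held it at least 8 times. A match describes these letters and is no sign of binding.

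Among genes of at least 100 CPM in the other barcodes, the 5 with the lowest ratios were those of red blood cells and of fibroblast-like cells. Hba-a1 and Hbb-bs, which encode globin chains, were at 29.0 CPM (20.2 to 40.3) and 65.5 CPM (51.8 to 81.6) in members and at 2366 and 2899.8 CPM elsewhere. Hbb-bt had a log2 ratio of -5.90 (-7.03 to -5.09). Angptl7 and Cilp, both secreted by connective tissue cells, had 1 and 3 UMIs in all members, with log2 ratios of -6.97 (-12.86 to -5.07) and -5.87 (-8.37 to -4.55). Below that limit of 100 CPM, no Hba-a2 UMI was found, which is at least 30.3-fold lower than the 75.4 CPM of the other barcodes when 3 counts over all members are taken as the floor. The paired globin genes are near-identical, so the split of counts between Hba-a1 and Hba-a2 and between Hbb-bs and Hbb-bt is uncertain. One member held 60.8% of the Hbb-bs UMIs and 40% of those of Hba-a1, without which these were at 25.8 and 17.5 CPM. An Hbb-bs UMI was found in 6.75% of members.

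Of the VEGF and angiopoietin genes, the receptor Kdr was higher in members than elsewhere, and the ligand genes Vegfa, Vegfb and Angpt1 were not. In this list 7 of 15 genes (14 tested) were at least 4-fold higher, 2 of them gate genes, and 1 was at least 4-fold lower. Kdr, the main signalling receptor of VEGF-A, was at 299 CPM (269 to 332) in members and 1.54 CPM elsewhere, and at 450.1 CPM in the 77 members of clusters 1 and 3. Nrp1, its coreceptor, was at 448 CPM (411 to 488) and 219.7 CPM, so that it was also present in other cells. Among the ligand genes, Vegfa was at 26.5 CPM (18.1 to 37.4) and 45.3 CPM and Vegfb at 19.9 CPM (12.7 to 29.6) and 22.4 CPM. Angpt1, the ligand of Tek that other cells release, was the gene at least 4-fold lower, at 5.80 CPM (2.33 to 12.0) and 27.1 CPM, from 7 UMIs of which 1 member held 85.7%, whereas Angpt2, which endothelial cells release themselves, was at 20.7 CPM (13.4 to 30.6) and 3.07 CPM. Pgf had 1 UMI in all members.

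Notch and BMP genes were mixed. In the Notch list 6 of 11 genes (10 tested) were at least 4-fold higher, with a median log2 ratio of 3.14. Hes1, a target of the pathway, was at 249 CPM (222 to 279) and 60.9 CPM, and the receptor Notch1 at 143 CPM (122 to 166) and 44.5 CPM. Rbpj, the DNA-binding factor of the pathway, went the other way, with 327 CPM (296 to 361) and 802 CPM, and it was at 60.7 CPM in the 77 members and 1145 CPM in the macrophage gate. In the BMP list 3 of 11 genes were at least 4-fold higher. The target genes Id1 and Id3 were at 560.2 CPM (519 to 604) and 746 CPM (698 to 796), against 22.7 and 237 CPM elsewhere, and the coreceptor Eng was at 334 CPM (302 to 368) against 19.7 CPM. Bmpr2, the type II receptor, was at 288 CPM (259 to 320.4) and 153 CPM, a log2 ratio of 0.91.

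Transcription factors of endothelium were at least 4-fold higher for 13 of 21 genes, with a median log2 ratio of 2.46. Klf2, a factor induced by blood flow, was at 979 CPM (924 to 1036) and 317 CPM. Klf4, of the same family, was at 741 CPM (693 to 791) and 589 CPM, and so was close to the level of other cells. Epas1, which encodes HIF-2 alpha, was at 448 CPM (411 to 488) and 21.5 CPM. Fli1, an ETS factor also used by blood cells, was at 442 CPM (405 to 481) in members, 209.6 CPM in the macrophage gate and 29.4 CPM in the fibroblast gate. Erg, the ETS factor of the endothelial identity list, was at 182 CPM (159 to 208) in members and at 0.717 and 1.17 CPM in those gates.

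Junction genes were at least 4-fold higher for 11 of 13 genes (12 tested), with a median log2 ratio of 5.27. The count includes the gate gene Cdh5, and it overlaps the endothelial identity list above, as with Pecam1, Esam and Emcn. Besides Pecam1, Esam, an adhesion molecule of tight junctions, was at 405 CPM (370.1 to 443) and 2.49 CPM, and Emcn at 390.3 CPM (356 to 427) and 1.30 CPM. Ocln, which encodes the tight junction protein occludin and is typical of brain vessels, had no UMI in members, an upper bound of 3.06 CPM.

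The 15 genes of fatty acid uptake and caveolae summed to 20376 CPM in members (20122 to 20633), 28367 CPM in the 77 members and 1919 CPM elsewhere, and 8 of 15 genes (13 tested) were at least 4-fold higher. Fabp4, a marker given with the rule, made up most of the sum, and the gate gene Gpihbp1 is part of both the sum and the count. Cd36, the fatty acid translocase, was at 1574 CPM (1504 to 1646), compared with 589 CPM in the macrophage gate. Cav1, the coat protein of caveolae, was at 1065 CPM (1008 to 1125) and 39.6 CPM. Fabp5, which macrophages also make, was at 1296 CPM (1233 to 1362) in members and 1030.2 CPM in the macrophage gate. The deepest member held 34.8% of the Fabp5 UMIs, and without it the members were at 903 CPM (848 to 960.0), below that gate. Lpl, the lipase bound by Gpihbp1, was at 495 CPM (456 to 536) and 419 CPM. Per member the list ranged from 3432 CPM at the 10th percentile to 47030.4 CPM at the 90th, with a median of 18463 CPM.

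Transport genes were at least 4-fold higher for 7 of 14 genes (13 tested). Aqp1, the water channel of non-brain capillaries, was at 1247 CPM (1185 to 1312) in members and 7.63 CPM elsewhere. An Aqp1 UMI was found in 62.6% (54.7 to 70.0%) of members after thinning and 79.8% without, against 1.12% and 2.65% in the fibroblast gate, whose median depth was 3056 UMIs. Slc9a3r2, a scaffold of ion transporters, was at 414 CPM (379 to 452) and 7.77 CPM, and Abcg2, a drug efflux pump, at 237 CPM (210.3 to 266) and 11.2 CPM. Slc6a6, the taurine transporter, did not stand apart, at 278 CPM (249 to 309.9) and 265 CPM. Mfsd2a, a lipid transporter of brain vessels, had 1 UMI.

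Genes that act on blood cells and vessel tone were higher in part. In the leukocyte adhesion list 5 of 11 genes (8 tested) were at least 4-fold higher. Cxcl12, a chemokine, was at 885 CPM (833 to 939.8) and 95.8 CPM, with 348 CPM in the fibroblast gate. Jam2, a junctional adhesion molecule, was at 229 CPM (203 to 257) and 7.07 CPM, whereas Icam1, a ligand of leukocyte integrins that inflammation induces, was at 193 CPM (169 to 219.6) and 164 CPM. Vcam1, another such ligand, was at 38.1 CPM (27.9 to 50.8) and 56.1 CPM. Sele had 18 UMIs and Madcam1 none. In the vasoactive list 6 of 12 genes (11 tested) were at least 4-fold higher. Ramp2 and Calcrl, which together form the adrenomedullin receptor, were at 448 CPM (411 to 487) and 202 CPM (178 to 229) against 43.8 and 34.6 CPM, and Ece1, which activates endothelins, at 219.6 CPM (194 to 248) against 42.6 CPM. Ptgis, which makes prostacyclin, was at 6.63 CPM (2.86 to 13.1) against 39.2 CPM. In the coagulation list 4 of 10 genes (9 tested) were at least 4-fold higher. Among these was Mmrn1, also a lymphatic gene, with 40, 25 and 52 UMIs in the 3 members with lymphatic genes described below. Thbd, a thrombin receptor that restrains clotting, was at 164 CPM (142 to 189) against 26.5 CPM, Entpd1, which breaks down extracellular ATP, at 238 CPM (211 to 267) against 102 CPM and Vwf at 126 CPM (107 to 148) against 5.38 CPM. F8, the clotting factor VIII gene, had 3 UMIs.

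In the basement membrane list 4 of 13 genes were at least 4-fold higher. Col4a1 and Col4a2, the chains of collagen IV, were at 836 CPM (785 to 889) and 529 CPM (489 to 571) in members, and at 673 and 312 CPM in the fibroblast gate. Sparc, at 1782 CPM (1707 to 1859), was at 5356 CPM there. Hspg2, which encodes perlecan, was at 254 CPM (226 to 284) in members and 261 CPM in the fibroblast gate, within the interval of the members.

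Growth factor and guidance genes include signals that vessels send to nerves and mural cells. In this list 11 of 25 genes (20 tested) were at least 4-fold higher and 2 at least 4-fold lower. Kitl, the ligand of the receptor Kit, was at 632 CPM (588 to 679) and 123 CPM. Sema6a, a membrane semaphorin, was at 298 CPM (268 to 331) and 21.4 CPM. Pdgfb and Pdgfd, ligands that recruit mural cells, were at 168 CPM (146 to 193) and 227 CPM (201 to 256) against 13.4 and 26.1 CPM. Several neurotrophic factor genes were sparse, with 11 UMIs of Bdnf, 6 of Gdnf and 1 of Artn in all members. Ntf3, which encodes neurotrophin 3, had 42 UMIs in 30 members, or 34.8 CPM (25.1 to 47.0), and was at 42.6 CPM in the fibroblast gate. The genes at least 4-fold lower were Sema3c, at 7.46 CPM (3.41 to 14.2) against 86.8 CPM, and Nrg1, an axonal signal to Schwann cells, at 4.14 CPM (1.35 to 9.67) against 37.5 CPM.

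**Figure D3:**
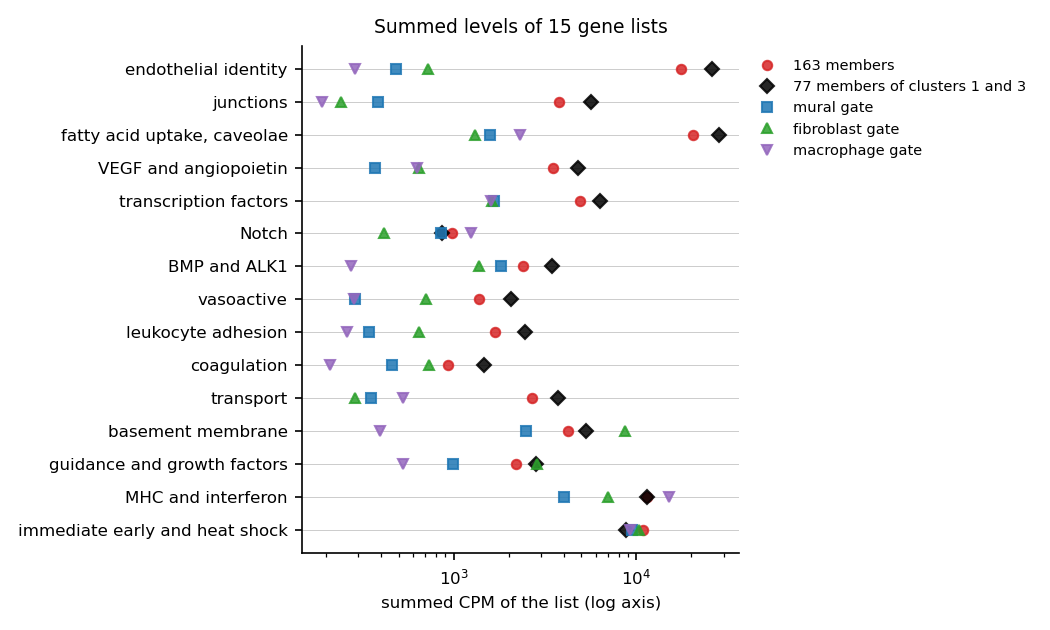
Summed CPM of 15 gene lists on a log axis, in all 163 members, in the 77 members of clusters 1 and 3, and in barcodes of the mural, fibroblast and macrophage gates alone. The identity, junction and fatty acid lists lie far to the right in members, and the junction and fatty acid lists each hold a gate gene. The immediate early and heat shock list runs from 8808 CPM in the 77 members to 10894 CPM in all members.

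MHC, interferon and stress genes passed 4-fold about as rarely as the 6.12% of all genes tested. Of 12 MHC and interferon-linked genes 1 was at least 4-fold higher, Ly6c1, a surface antigen of endothelium and monocytes, at 1406 CPM (1339 to 1474) and 175 CPM. B2m, the light chain of MHC class I, was at 1232 CPM (1170.5 to 1297) and 1378 CPM, and Ifitm3, an interferon-induced gene, at 1845 CPM (1769 to 1923) and 1028 CPM. Cd74, the invariant chain of MHC class II, was at 1611 CPM (1540.3 to 1684) in all members but at 60.7 CPM in the 77 members, and so moved with the myeloid list. Of 11 immediate early and heat shock genes 0 were 4-fold higher or lower. Fos and Junb, early response genes that tissue dissociation also induces, were at 1999 CPM (1920.0 to 2080.3) and 2453 CPM (2366 to 2543), against 1531 and 2318 CPM elsewhere.

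Genes of sprouting vessels were sparse or mixed. In the list of tip and angiogenic genes 6 of 14 genes (9 tested) were at least 4-fold higher. Plvap, a component of capillary diaphragms, was at 316 CPM (285 to 349) and 3.87 CPM, and Aplnr, the apelin receptor, at 57.2 CPM (44.5 to 72.4) and 0.458 CPM. Of the tip cell genes, Esm1 had 11 UMIs, Apln 15 in 3 members and Kcne3 none. UMIs of at least 2 of 14 cell cycle genes were found in 3 of the 163 members after thinning to 1500 UMIs, which is 1.84% (0.381 to 5.28%), and in 20, or 12.3%, without thinning. Of these 20 members, 12 also passed another gate. The thinned shares were 2.64% in the mural, 1.84% in the fibroblast and 2.48% in the macrophage gate, all within the members' interval, so that a difference was not detectable at this depth, and the unthinned ones were 3.43, 4.91 and 8.12%.

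Vessel segments were read from gates of 5 arterial and 5 venous genes, with a UMI of at least 2 of the 5 asked for. This placed 30 members in the venous set alone, which is 18.4% (12.8 to 25.2%), and 12 in the arterial set alone, which is 7.36% (3.86 to 12.5%), and 2 members in both. The other 119 met neither. These sets are ranges and not types: 42 members had exactly 1 venous and 23 exactly 1 arterial gene. Depth moved with the sets, since the arterial members had a median of 13640 UMIs, the venous ones 8315 and those in neither set 3620, and its part was not tested. Of the arterial members 9 passed another gate, with 6 past the mural and 3 past the macrophage gate, and of the venous members 13 did, with 6 past the mural and 7 past the macrophage gate. The shares also depended on the settings. With the members in both sets counted, 8.59% were arterial, which became 19.7% at a floor of 5000 UMIs, 3.51% without members of another gate and 1.84% when 3 genes were needed. The venous share of 19.6% became 7.36% when 3 genes were needed.

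The sets were spread differently over the clusters and differed in the RNA of other cell types. Of the arterial members 6 were in cluster 4, of the venous members 11, 10 and 7 were in clusters 5, 3 and 2, and of those in neither set 53 were in cluster 1. The myeloid list summed to 11066 CPM in venous members, 4678 CPM in arterial members and 7031 CPM in neither, and the mural list to 1085, 5187 and 3046 CPM. The part of this RNA in the values that follow was not tested.

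Genes outside the gates differed between the sets beyond counting error, although single members often held much of a gene. Plvap was at 622 CPM (543 to 710.3) in venous members, 59.2 CPM (28.4 to 109) in arterial members and 196 CPM (164 to 233) in those of neither set. Without the member richest in Plvap in each set, the levels were 494, 26.3 and 132 CPM in the same order of sets. Icam1 was at 332 CPM (275 to 398), 53.3 CPM (24.4 to 101) and 161 CPM (132 to 195). Cxcl12 ran the other way, with 236 CPM (188 to 292), 1551 CPM (1369 to 1751) and 1034 CPM (958 to 1114), and 1 arterial member held 50.8% of the arterial UMIs. Without that member the arterial level was 849 CPM (709 to 1009), above the venous level but no longer above that of the neither set. Igfbp3, which binds insulin-like growth factors, was at 5.68 CPM (0.688 to 20.5), 343 CPM (261 to 444) and 81.5 CPM (61.2 to 106), with 67.2% of the arterial UMIs in 1 member, without which the arterial level was 125 CPM (75.3 to 195) and overlapped that of the neither set. Rgcc, of the capillary list, was at 1187 CPM (1106 to 1273) in members of neither set and at 207 CPM (163 to 261) in venous members. The whole capillary list summed to 5433 CPM in the neither set, 4802 CPM in arterial members and 1475 CPM in venous members. Nr2f2, a venous factor, hardly told the pooled sets apart, with 182 CPM (140.0 to 232) in venous, 154 CPM (101 to 226) in arterial and 128 CPM (102 to 159) in neither. It was, however, among the 10 leading genes of cluster 5, whose 14 cells, all under 5000 UMIs, include 11 venous members.

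By ratio to the members of neither set, the venous set was led by Cytl1, Wipf3, Pcdh7, Ms4a4c and Tll1. Cytl1, a secreted protein gene, had 23 UMIs in 3 venous members and none in the neither set, so that it was at least 14.4-fold higher when the latter is given the floor of 3 counts over that set, or at least 7.04-fold without the member that held 52.2% of its UMIs. Pcdh7, a protocadherin gene, had 175 UMIs in 10 members, with a log2 ratio of 4.24 (3.56 to 5.09), and 1 member held 69.7% of them. Without it Pcdh7 was at 159 CPM against 25.7 CPM in the neither set. Tll1, a metalloproteinase gene, was found in 11 members, with a log2 ratio of 3.62 (2.48 to 5.25). Wipf3 and Ms4a4c, the latter a gene of myeloid cells, were found in 4 and 2 venous members, with 77.8% and 87.0% of their UMIs in 1 member each. For Tll1 that share was 31.0%. The arterial set was led by Mnd1, Slc35f1, Stmn2, Tnip3 and Gucy1a2, with log2 ratios of 3.08 for Mnd1 to 2.09 for Gucy1a2, each from 20 to 47 UMIs in 2 to 8 cells. One member held 70% of the arterial Mnd1 UMIs and 1 member 95.7% of those of Tnip3, and without these members the arterial levels fell from 118 to 38.2 CPM and from 136 to 6.81 CPM, the latter below the 28.7 CPM of the neither set. Tnip3, also the first leading gene of cluster 2, was at 43.1 CPM in all members and 101 CPM in the other barcodes. For Slc35f1, Stmn2 and Gucy1a2 the share in 1 member was 38.1, 27.7 and 53.8%, and without that member Gucy1a2 was at 82.4 CPM against 36.2 CPM in the neither set. The arterial member richest in Stmn2 lay in cluster 3 and is among those with lymphatic genes described below. Those richest in Mnd1, Slc35f1 and Gucy1a2 lay in cluster 4, where the mural genes counted.

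Clusters 1 and 3 were formed with these genes among all others, so their levels are a description. In cluster 1 all 10 capillary genes counted and no venous gate gene did. Rgcc was at 2142 CPM (1953 to 2344) in cluster 1 and 279 CPM (219 to 352) in cluster 3, and Cd36 at 3556 CPM (3311 to 3814) and 904 CPM (792 to 1028). Aqp7, an aquaglyceroporin, was at 259 CPM (196 to 336) and 34.9 CPM in cluster 3, and Car4, a carbonic anhydrase of capillaries, at 136 CPM (92.0 to 195) and 0 CPM, with an upper bound of 14.3 CPM. Cluster 1 also held muscle fibre RNA, which summed to 1933 CPM against 42.7 CPM in cluster 3. One member held 56.9% of the UMIs that all members had of that list, and without it the sum in cluster 1 was 502 CPM. In cluster 3 all 5 venous gate genes counted. Vwf was at 427 CPM (351 to 514) there and 27.3 CPM (10.0 to 59.4) in cluster 1, Lrg1 at 636 CPM (543 to 741) and 31.8 CPM (12.8 to 65.6), and Plvap at 1024 CPM (904 to 1156) and 68.2 CPM (38.2 to 113), or 28.2 CPM in cluster 1 without 1 member. Ackr1, a chemokine scavenger of venules, came from 3 of the 23 cells and Selp, which encodes P-selectin, from 4, with over 50% of the UMIs of each in 1 cell. In cluster 5 13 of 14 cells held Selp.

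**Figure D4:**
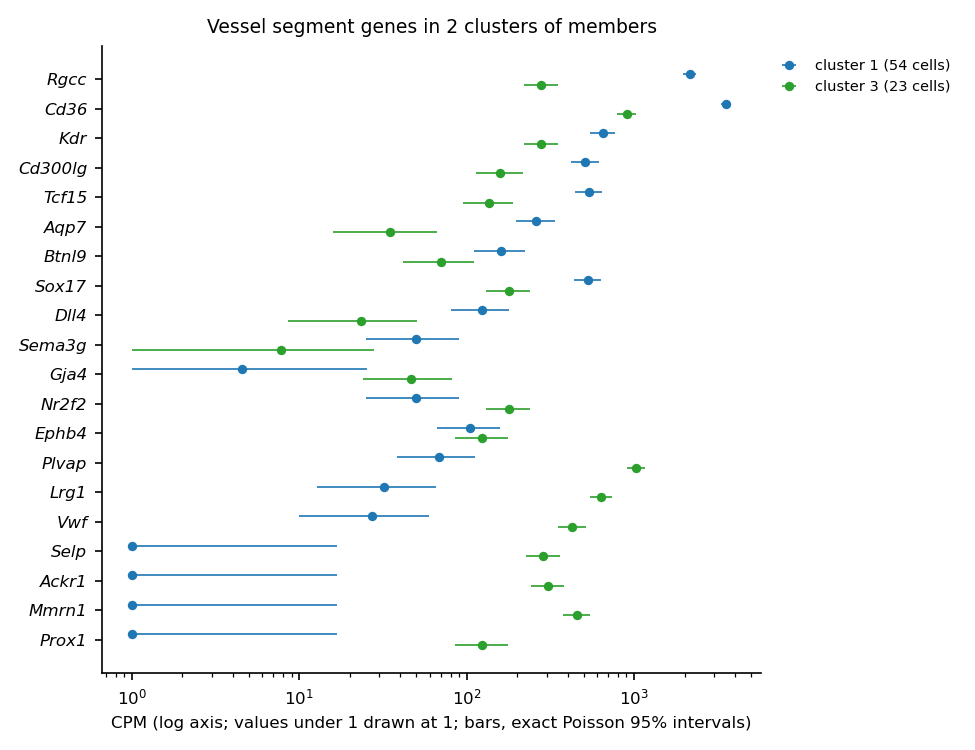
CPM of capillary, arterial, venous and lymphatic genes in clusters 1 (54 members) and 3 (23 members) on a log axis, with exact Poisson 95% intervals and values under 1 drawn at 1. Capillary genes lie higher in cluster 1, and Plvap, Lrg1, Vwf, Selp, Ackr1, Mmrn1 and Prox1 higher in cluster 3.

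Lymphatic genes went against the blood vessel label in 3 members, which are 1.84% (0.381 to 5.28%). These cells, defined after the data were seen by UMIs of at least 2 of Prox1, Mmrn1, Reln and Flt4, held 12, 3 and 16 UMIs of Prox1, the master factor of lymphatic identity, and 40, 25 and 52 UMIs of Mmrn1. They carried all 839 member UMIs of Ccl21a, a lymphatic chemokine, as 311, 310 and 218, although near-identical copies of this gene make the count uncertain. None of the 3 held a Flt1 UMI, and they passed the gate with 6, 7 and 1 UMIs of Gpihbp1 and 1 to 3 of Cdh5 and Ptprb. None passed the mural, fibroblast or macrophage gate, all 3 lay in cluster 3, and 1 belonged to the arterial set. Lyve1, a hyaluronan receptor, was found in 2 of them. Pdpn, which fibroblasts also make, was lower in members at 14.1 CPM (8.21 to 22.6) than in the other barcodes at 118 CPM.

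Among the mural genes Rgs5 behaved differently from the rest of its list. In cluster 1, where no mural list had 3 counting markers, Rgs5 was at 1073 CPM (941 to 1219), from 21 of the 54 cells, while Acta2, Kcnj8 and Higd1b had 1 UMI each. In cluster 4 Rgs5 was at 3582 CPM (3346 to 3829.5), Acta2 at 1908 CPM (1737 to 2091), or 1072 CPM without 1 member, and Kcnj8 at 709.6 CPM (607 to 825). In cluster 3 Rgs5 was at 15.5 CPM (4.23 to 39.7). Barcodes of the mural gate alone had 542 CPM (511 to 575) of Rgs5. Whether the Rgs5 of cluster 1 came from the members themselves was not tested.

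RNA of the reporter was lower in members than in the other barcodes of this GFP+ sort. Gfp was at 141 CPM (121 to 164) in all members, 62.8 CPM (42.4 to 89.7) in the 77 members and 95.7 CPM (71.9 to 125) in those of the endothelial gate alone, compared with 352 CPM in the other barcodes. It was at 441 CPM (437 to 446) in the macrophage, 173 CPM (156 to 192) in the mural and 142 CPM (138 to 147) in the fibroblast gate. Among the clusters Gfp was at 13.6 CPM (2.81 to 39.9) in cluster 1, from 3 UMIs, 332 CPM (277 to 396) in cluster 2 and 105 CPM (69.0 to 152) in cluster 3, where 2 cells held all of it and 1 of these 92.6%. Without that cell Gfp was at 8.41 CPM (1.02 to 30.4) in cluster 3. In clusters 4, 5 and 6 Gfp was at 8.35, 59.2 and 138 CPM, and the values of clusters 4 and 5 came from very few UMIs. The myeloid list summed to 491, 20776, 217, 397, 7276 and 12941 CPM in clusters 1 to 6 in order, and its part in the Gfp levels was not tested. When the pooled library profile was subtracted at the share set by the myeloid list, the Gfp level of all members was 1.71 CPM. That share was set for all members together, although the myeloid sums differed between clusters, and the profile itself held Gfp. A fall in Gfp follows from these settings, and the source of the members' Gfp was not tested. After thinning, 10.4% (6.19 to 16.2%) of members and 2.60% (0.316 to 9.07%) of the 77 held a Gfp UMI, or 19.6% and 6.49% without thinning, at median depths of 4107 and 4897 UMIs. The macrophage gate share was 36.0% (35.1 to 36.9%), and 65.4% without thinning. S100b, whose promoter drives the reporter, had 3 UMIs in all members, and 1 member held 71.6% of the UMIs of 8 Schwann cell genes.

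**Figure D5:**
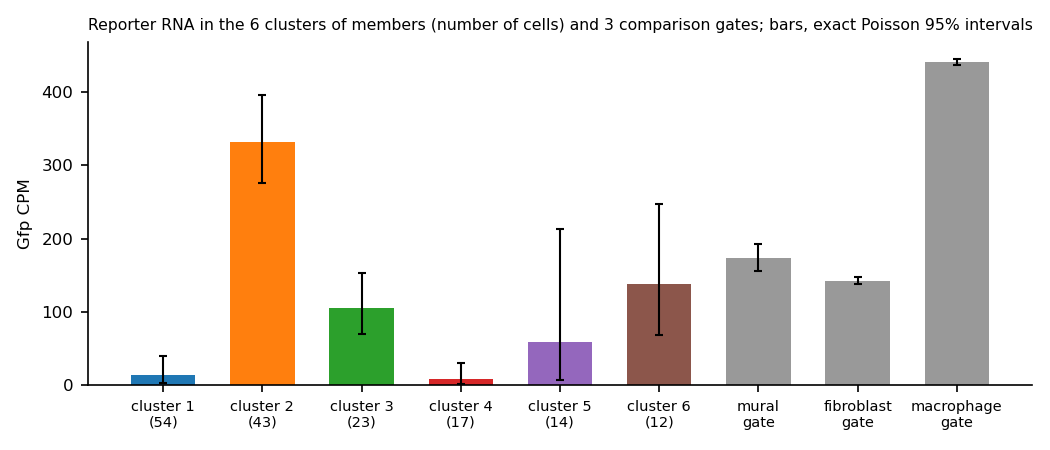
Gfp CPM in the 6 clusters of members, with the number of cells in each, and in barcodes of the mural, fibroblast and macrophage gates alone, as bars from 0 with exact Poisson 95% intervals. Cluster 1 stands at 13.6 CPM and cluster 2 at 332 CPM, below the macrophage gate.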

How the data were processed

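The deposited values are raw counts of UMIs per gene and barcode, which the authors made with Cell Ranger from 3' single-cell libraries. The submitters' processing notes name Cell Ranger 7.1.0 and Seurat 4.30, the matrix header names version 8.0.1, and the sources give more than one mouse build, so no coordinates were taken from the files. Features that share a symbol were summed. Members, gene lists and comparisons were chosen with earlier results of these data known. Genes outside the naming rule (such as Erg, Lpl, Angpt2, Vcam1, Ntf3 and those of the segment plot) were picked after their values were seen.

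Each class of cells was pooled into 1 sum of counts per gene, given as CPM with exact Poisson intervals, shares with exact binomial (Clopper-Pearson) intervals and ratios with exact conditional intervals, all at 95%. A gene was tested, which here means only compared by size, when the average of its CPM in both classes was at least 10, and 0.5 UMIs were added to each sum for log2 ratios. With 1 library there was no replicate and no p-value. Named were the 2 to 4 highest genes of each list and defining genes near 0, the 15 highest ratios among genes in at least 25% of members, the 5 lowest among genes of at least 100 CPM elsewhere, and the first 5 of each segment set with at least 20 UMIs. Shares were also taken after drawing 1500 UMIs per cell without replacement. Members were clustered on 1000 variable genes without the gate genes, with 15 components, 15 neighbours and Leiden resolution 0.5. No doublet caller was run. Members that passed another gate were counted and left out as an alternative.

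The GFP+ library held 170648616 UMIs in 36400 barcodes and 32287 features, of which 9628 barcodes were under 1500 UMIs and 1400 more had at least 10% mitochondrial UMIs. On simulated counts for 8578 genes, the intervals held the true ratio in 96.0% of cases, 100% of the genes made 8-fold higher were called and 0% of the unchanged ones. These were pooled Poisson counts without differences between cells, as the intervals assume, and 8-fold lies above the 4-fold limit. They check the arithmetic only and not the spread between members. Scripts used scanpy 1.11.5 and igraph 0.11.9 for clustering and scipy 1.17.1 for intervals, under Python 3.11.15.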

Additional observations from a re-analysis of the deposited data

How the results depend on the processing

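Beside the 163 members, a gate of 3 UMIs over 2 genes gave 271, 8 UMIs over 4 genes 108, a floor of 5000 UMIs 71, a mitochondrial limit of 5% 127, and leaving out members of another gate 114, each by construction. The 554 genes at least 4-fold higher became 226 with a mean of at least 50 CPM and 7354 with no filter, which added genes with few counts, and ranged from 462 to 830 under the other settings. Arterial members, 8.59% with those in both sets, were 19.7% at 5000 UMIs, 3.51% without members of another gate and 1.84% when 3 genes were needed. Venous members, 19.6%, were 26.8% at 5000 UMIs and 7.36% with 3 genes. Gfp, 141 CPM, was 95.7 CPM without members of another gate, 93.1 CPM as a mean over cells, 62.8 CPM in clusters 1 and 3, a set chosen after seeing the data, and 1.71 CPM after the pooled library profile was subtracted at the share of 41.1% that the myeloid list set. The cause of these shifts was not tested. The cycling share, 1.84%, was 12.3% without thinning. Clusters, 6 in number, were 3 at resolution 0.25 and 7 at resolution 1. Of the 35 list sums, 35 stayed within their counting interval at a floor of 1000 UMIs, 15 at 5000 UMIs, 3 without members of another gate and 2 after the pooled profile was subtracted, when the identity list rose from 17542 to 28479 CPM, the myeloid list fell from 7747 to 718 CPM and the fibroblast list from 2282 to 0 CPM. Levels without the member richest in a list or gene were added after seeing the data. No paired analysis was possible because 1 library was analysed. Depth limits statements on genes with few UMIs, and the absence of a second library limits all of them.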
